A study of Mus musculus with 2 samples.

Results

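The genes described here encode core proteins of the spliceosome, the machine that removes introns from pre-mRNA. They are the protein-coding mouse genes whose symbol begins with Sf3a, Sf3b, Prpf or Lsm and a number, or with Snrp, together with Sf1, U2af1 and U2af2. The rule found 50 genes of the 21271 protein-coding genes that have a start site on the autosomes or the X chromosome. The rule goes by name, and not all 50 act in splicing. Lsm1 belongs to a cytoplasmic mRNA decay ring, Lsm10 and Lsm11 to the U7 particle of histone mRNA processing, and Lsm14a and Lsm14b to cytoplasmic mRNA repression.

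The measurement was chromatin immunoprecipitation and sequencing with an antibody to NRF1 in CH12.LX, an immortalized line of a mouse B-cell lymphoma (strain B10.H-2aH-4bp/Wts, female). The 2 libraries are biological replicates numbered 1 and 2 per the labels and form 1 group, so the design sets no condition against another. The labels name no treatment or genetic change. A gene was called occupied where a peak of the optimal set, which the authors chose with the irreproducible discovery rate (a score of how well peak ranks repeat), had its summit within 1000 bp of the annotated start of the gene. Signal is the value the authors' peak caller gave each peak, and nothing in the labels or files states its scale.

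NRF1, nuclear respiratory factor 1, binds a GC-rich palindromic element as a homodimer and is best known for its part in the transcription of nuclear genes for mitochondrial proteins. The spliceosome assembles from small nuclear ribonucleoproteins (snRNPs): U1 and U2 recognise the ends of the intron, and the U4/U6.U5 tri-snRNP brings in the RNAs of the catalytic centre. Sm proteins form a ring on most of these RNAs, Lsm proteins form the ring on U6, and SF3A, SF3B, SF1 and U2AF act at the branch point and the 3′ splice site.

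The sequences under the strongest promoter peaks are shown first, because most of those peaks lie on a copy or a near copy of the NRF1 element. The element was searched on both strands as GCGCACGCGC, whose reverse complement is GCGCGTGCGC, and as the palindrome GCGCATGCGC. Sequences are from the RefSeq promoter table on build GRCm38.p6 (mm10), which covers 250 bases before to 50 after a start, and are written 5′ to 3′ on the strand of the gene. Capitals mark the element, and lower-case letters inside it mark bases that differ from it. The table held 40 of the 50 members and 37 of the 45 occupied ones. Among the 12 members of highest signal, Lsm1, Lsm4 and U2af2 had no entry. The following 5 members had the full element within 25 bp of the summit of their promoter peak:
Lsm7 (chr10:80855239-80855268, minus strand): cgccgaggctGCGCGTGCGCaaaggcctcc
Prpf3 (chr3:95855906-95855965, minus strand): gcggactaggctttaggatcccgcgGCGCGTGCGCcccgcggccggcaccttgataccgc
Prpf39 (chr12:65036311-65036340, plus strand): ggagccgccgGCGCGTGCGCagtgtgatcc
Prpf6 (chr2:181601189-181601248, plus strand): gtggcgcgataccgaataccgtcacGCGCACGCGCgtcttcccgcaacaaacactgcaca
Snrpb2 (chr2:143062905-143062964, plus strand): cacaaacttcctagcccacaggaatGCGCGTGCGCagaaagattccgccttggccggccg

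Strong peaks of other members lay on a copy with 1 mismatch, shown next because the mismatch recurred among them. The form GCGCAGGCGC, or its reverse complement GCGCCTGCGC, stood under the peaks of Lsm14b, U2af1 and Snrpd2, and beside the full element of Lsm7. It was in 4 of the 40 members' promoters (10%), against 3.09% of all 17274 promoters in the table. The form was picked as the most frequent with 1 mismatch under the members' own peaks. The higher share in members therefore follows from that choice in part, and no difference is read from it. Sf1 and Lsm2 share another form, in which the outermost base differs:
Lsm14b (chr2:180024813-180024872, plus strand): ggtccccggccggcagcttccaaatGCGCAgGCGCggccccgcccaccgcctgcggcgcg
U2af1 (chr17:31658868-31658897, minus strand): gccaaggagtGCGCAgGCGCcagggtaggg
Snrpd2 (chr7:19149763-19149792, plus strand): gtatttggttGCGCAgGCGCcgacggaagt
Sf1 (chr19:6363448-6363507, plus strand): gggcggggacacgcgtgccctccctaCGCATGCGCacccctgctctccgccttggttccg
Lsm2 (chr17:34981786-34981845, plus strand): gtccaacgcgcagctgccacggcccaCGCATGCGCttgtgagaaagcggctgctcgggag
Lsm8 (chr6:18848505-18848564, plus strand): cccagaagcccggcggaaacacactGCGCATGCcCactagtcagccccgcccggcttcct
Lsm10 (chr4:126096573-126096602, plus strand): atcctgcgagGCGCATGCtCtgatgctctg
Sf3b1 (chr1:55027438-55027467, minus strand): gctcccgggtGCGCACGCtCagagagcggc

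Sf3a2 is shown because 2 copies lay in its promoter, 1 with a mismatch at 11 bp from the summit and the full element at 120 bp:
Sf3a2 (chr10:80798544-80798573, plus strand): tcgctgcagtGaGCACGCGCactctgcgcc
Sf3a2 (chr10:80798660-80798719, plus strand): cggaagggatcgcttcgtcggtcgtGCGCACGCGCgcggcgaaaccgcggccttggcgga

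Lsm11 and Prpf38b are shown as exceptions: their peaks were strong, yet the best matches within 50 bp of the summit had 2 and 3 mismatches.
Lsm11 (chr11:45945005-45945034, minus strand): cctggtggccGCGgcTGCGCagtgcgtccc
Prpf38b (chr3:108911803-108911862, minus strand): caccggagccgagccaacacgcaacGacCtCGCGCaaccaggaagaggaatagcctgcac

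The upstream 250 bases of Prpf3, which encodes a U4/U6 snRNP protein and had the strongest of the Prpf peaks, are given whole to show where the element lies within the promoter. They lie at chr3:95855886-95856135 of GRCm38.p6 on the minus strand, ending at the base before the start:
Prpf3 upstream: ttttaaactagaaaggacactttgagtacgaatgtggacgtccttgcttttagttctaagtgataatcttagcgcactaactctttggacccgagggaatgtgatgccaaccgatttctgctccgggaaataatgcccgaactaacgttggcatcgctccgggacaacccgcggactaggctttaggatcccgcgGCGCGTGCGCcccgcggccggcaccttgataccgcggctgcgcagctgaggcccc

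Most spliceosome genes were occupied. An optimal peak lay at the promoter of 45 of the 50 members (90%), against 36.8% of all protein-coding genes. The set of peaks used held 17547, whose median signal was 38.0 and highest 703. With the summit required within 500 bp, 44 members were occupied against 33.7% of all genes, and within 2000 bp 45 against 39.2%. Counting any RefSeq start of a gene at 1000 bp, 45 members were occupied against 39.9%. The conservative set, selected more strictly, gave 43 members against 35.6%. A separate set called on build mm9 gave 43 against 35% of 20333 genes. That set was read at any GENCODE start of a gene, a looser rule than the 1 start used for the optimal and conservative sets. Each replicate by itself, taken to its strongest 17547 peaks, marked 45 members in replicate 1 against 38% of all genes and 46 in replicate 2 against 36.7%. In all 5 of these lists on the 1000 bp window, 41 members were occupied, and 3 were in none of them. The same overlap is not given over all genes, so these counts describe the members only.

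Spliceosome genes mostly have CpG-rich promoters, which many broadly transcribed genes share. A CpG-rich promoter, here a G+C share above 0.5 and an observed-to-expected CpG ratio above 0.6 in the 1000 bp centred on the mm9 start, was found at 46 of 50 members (92%), against 46.8% of all genes. Among CpG-rich promoters alone, 43 of 46 members (93.5%) were occupied, against 63.7% of all such genes. Both shares were higher than among all promoters, and the part of CpG content in the members' occupancy was not tested.

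Signal at the occupied members ran from 19.96 at Prpf31 to 685 at Sf1, with a median of 144 and quartiles of 47.7 and 545. All 7829 occupied genes had a median of 85.5 and quartiles of 35.9 and 418. Of the 50 members, 37 were held by the 8773 peaks of higher signal, against 26.9% of all genes, and 23 by the 4386 strongest peaks, against 15.8%. Counted among occupied genes only, these were 82.2% of members against 73.2% and 51.1% of members against 43.1%. The members' share was the higher in each count, by a smaller margin than in the count of occupied genes.

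The members fell into a strong and a weak band with few between. A signal of at least 300 was measured at 20 of the 45 occupied members (44.4%), against 32% of all occupied genes. Only Prpf40b, Snrpg and Lsm5 lay between 100 and 300 (6.67%), against 15.1% of all occupied genes. The other 22 members were under 100 (48.9%), against 52.8%. The step between the bands stood between Snrpb2 at 340 and Prpf40b at 211. These limits were chosen after the values had been seen.

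Replicates gave the same order of members for the most part. Spearman's rho between the replicate signals was 0.945 over the 45 occupied members, which share the 2 libraries, and 0.941 over 7775 occupied genes with a matched peak in both. Within the strong band it was 0.907 (n = 20) and below it 0.728 (n = 25). The optimal peaks were chosen for ranks that repeat between the replicates. Part of this agreement was therefore set by the choice of peaks, for members and for all genes. Replicate 1 was higher at 22 members and replicate 2 at 23. The 2 values lay within 1.5-fold of each other at 39 members. The 6 exceptions, among them Sf3b2, Snrpa1, Snrpa, Prpf4 and Prpf38a, were all in the weak band. At Sf3b2 the matched peaks had signals of 37.8 in replicate 1 and 8.85 in replicate 2, although a stronger relaxed peak of 15.5 also overlapped the optimal peak in replicate 2.

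**Figure D1:**
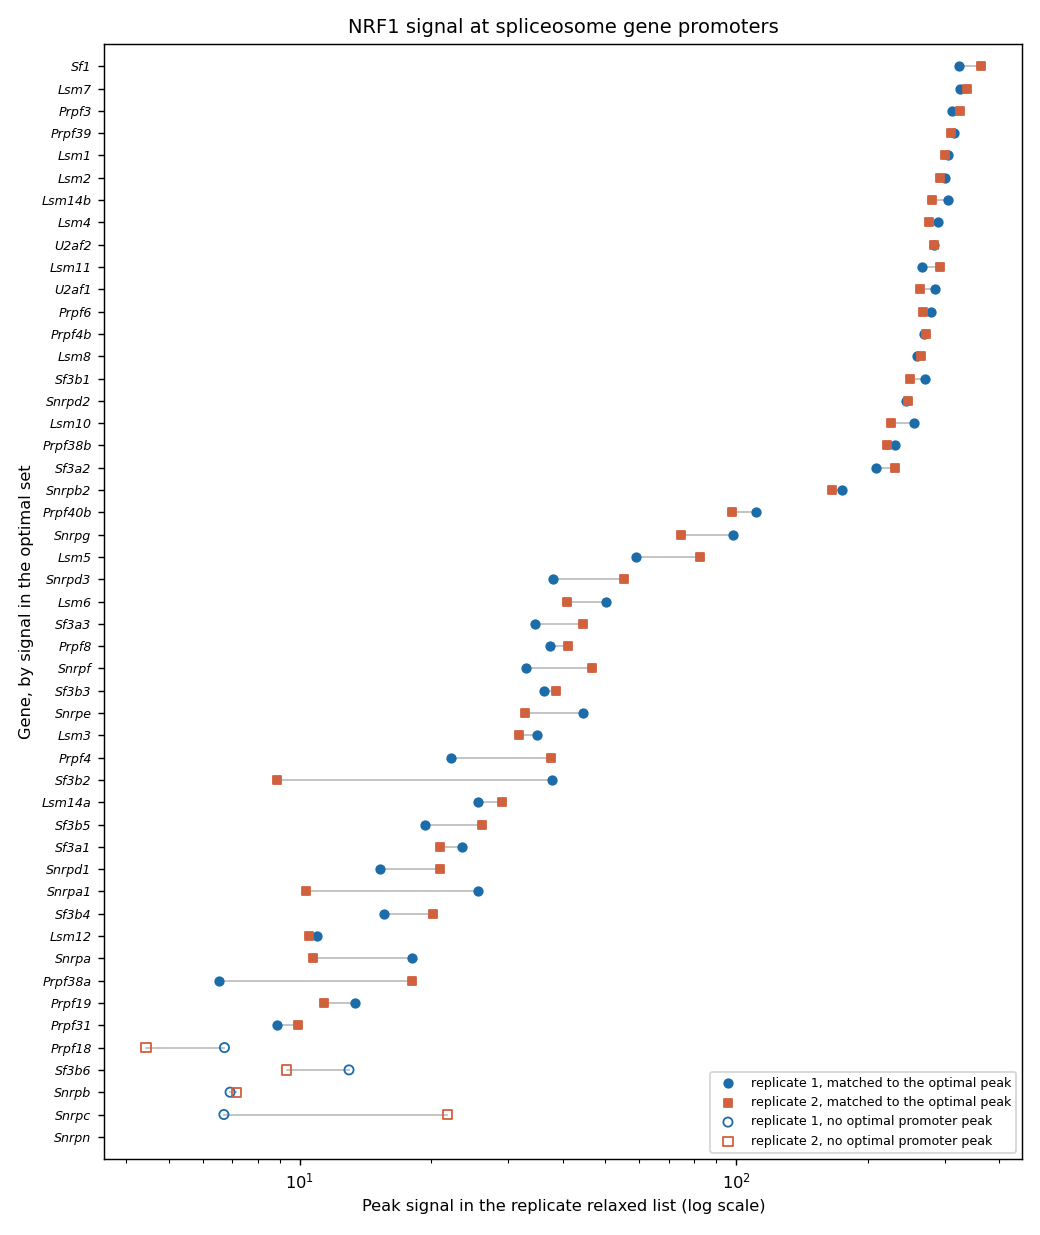
Signal of the peak matched to each spliceosome gene in the relaxed list of replicate 1 (circles) and replicate 2 (squares), on a log axis, with genes ordered by signal in the optimal set and 1 gene not drawn. Open symbols are the strongest relaxed peaks of the genes with no optimal promoter peak. Paired symbols nearly coincide in the upper 20 genes and part by more than 1.5-fold at several genes below them, such as Sf3b2, Snrpa1 and Prpf38a.

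The genes of the proteins that first read the branch point and the 3′ splice site all had strong signal. Sf1, which encodes the protein that binds the branch point sequence, had 323 in replicate 1 and 363 in replicate 2 (mean 343.3 ± 28.04, SD, n = 2). Its optimal signal of 685 exceeded that of 99.9% of occupied genes. U2af2 encodes the large U2AF subunit, which binds the polypyrimidine tract, and had 283 and 284. U2af1 encodes the small subunit, which contacts the AG at the 3′ splice site, and had 286 and 263. All 3 genes were in the strong band, with a median of 563 in the optimal set. Sf1 carried a second optimal peak of 637 with its summit 894 bp inside the gene, beside the one 193 bp upstream of the start. Counted from the outer gene ends used as starts, the U2AF summits lay inside the genes, at 377 bp for U2af2 and 257 bp for U2af1. From the start of its RefSeq promoter, the U2af1 summit lay upstream, at -127 bp, and U2af2 had no entry there.

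Genes of the U2 snRNP complexes SF3A and SF3B were mostly occupied at low signal. In SF3A, Sf3a2 had 209 in replicate 1 and 232 in replicate 2, Sf3a3 had 34.6 and 44.5, and Sf3a1 had 23.6 and 20.9. Sf3a2 thus stood above both partners in each replicate by more than the replicates differed. In SF3B, Sf3b1, the large scaffold protein that clamps the branch helix, had 271 and 250. The other occupied SF3B genes had 33.9 (Sf3b4) to 75.1 (Sf3b3) in the optimal set, and none of their replicate values reached 40. Sf3b6, which encodes the small p14 subunit near the branch adenosine, had no optimal promoter peak. Its strongest relaxed promoter peaks had 13.0 in replicate 1 and 9.33 in replicate 2. It was the gene for which replicate 1 alone passed its top list, whose lowest signal was 9.83, while the lowest in that of replicate 2 was 9.62. The nearest optimal summit to Sf3b6 lay 26384 bp away.

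Among the Sm ring genes, 6 of 8 were occupied and Snrpd2 was the single one in the strong band. Snrpd2, encoding SmD2, had 245 in replicate 1 and 248 in replicate 2. Snrpg, encoding SmG, followed with 98.0 and 74.7. Snrpd3, Snrpf and Snrpe had optimal signals of 96.1, 77.7 and 74.8, and Snrpd1 was lowest with 15.3 and 21.0 in the replicates. The genes of this ring thus spanned both bands.

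Both genes for the SmB position of that ring had no optimal promoter peak. Snrpb encodes SmB and SmB′, and its strongest relaxed promoter peaks had 6.92 in replicate 1 and 7.15 in replicate 2. Snrpn encodes SmN, the form known from brain and heart and from an imprinted locus, and it had no relaxed peak within 1000 bp of the start used in either replicate. That start is the outer end of a long annotated span, chr7:59982495-60450177. Relaxed peaks at other starts within the span were not counted. The nearest optimal summits lay 60533 bp from the start of Snrpb and 1221498 bp from that of Snrpn. Neither gene had a copy of the element, with up to 1 mismatch, in the 1000 bp centred on its mm9 start. Over all genes, 22% had such a copy. Lists of 300000 relaxed peaks hold background as well as peaks, so the low values at Snrpb are not read as binding.

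Genes of proteins specific to U1 and U2 split in the same way. Snrpb2 encodes the B″ protein of U2 and had 174 in replicate 1 and 165 in replicate 2. Snrpa encodes the related A protein of U1 and had 18.1 and 10.7. Snrpa1, encoding the A′ protein of U2 that binds the B″ protein, had 25.6 and 10.3. Snrpb2 was above both in each replicate. Snrpc, which encodes the C protein of U1 at the 5′ splice site, had no optimal promoter peak, with strongest relaxed peaks of 6.70 in replicate 1 and 21.8 in replicate 2. It was occupied by the top list of replicate 2 alone, and its nearest optimal summit lay 12261 bp upstream.

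The Lsm ring genes were occupied throughout. All 8 of Lsm1 to Lsm8 had an optimal promoter peak, 5 of them in the strong band, with a median of 544. Lsm7 had 325 in replicate 1 and 338 in replicate 2. Lsm2 had 300 and 293, and Lsm4 had 290 and 277. Lsm1, which takes the place of Lsm8 in the cytoplasmic decay ring, had 305 and 301. Lsm8, which sets the nuclear U6 ring, had 260 and 265, so the genes that distinguish the rings were both strong. The weaker genes were Lsm5 with 58.9 and 82.7, Lsm6 with 50.2 and 41.0, and Lsm3 with 34.9 and 31.8.

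The Lsm genes outside that ring showed the same range. Lsm11 and Lsm10, the Sm-like subunits of the U7 snRNP, had optimal signals of 556 and 479 with replicate values of 266 and 292 for Lsm11 and 255 and 226 for Lsm10. Lsm14b had 305 in replicate 1 and 282 in replicate 2, while its paralog Lsm14a had 25.6 and 29.0. Lsm12 had an optimal signal of 32.0 at a summit 930 bp inside the gene. Stronger optimal peaks of 121 and 340 lay just beyond the window, at 1138 and 1337 bp, so the value for Lsm12 depended on the start site used.

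In the tri-snRNP, signal differed between genes whose proteins bind each other. Prpf3 had 312 in replicate 1 and 326 in replicate 2. Prpf4, whose protein forms a U4/U6 subcomplex with that of Prpf3, had 22.2 and 37.5. Prpf6, a U5 protein that bridges to U4/U6, had 280 and 268. Prpf8, the scaffold of the catalytic centre, had 37.4 and 41.2. Prpf31, which locks U4/U6 to U5, had the lowest optimal signal of the occupied members, with 8.84 and 9.90 in the replicates, and it had no mm9 peak. All 5 genes were occupied, with a median of 79.3.

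The U1-linked and the late-acting Prpf genes repeated this contrast. Prpf39, homologous to a yeast U1 snRNP protein, had 315 in replicate 1 and 311 in replicate 2. Prpf40b, homologous to another, had 111 and 97.6. Prpf4b, a kinase of the pre-catalytic spliceosome, had 269 and 272. Prpf38b had 231 and 222, and its paralog Prpf38a had 6.51 and 18.1. A stronger relaxed peak of 10.3 also overlapped the optimal peak of Prpf38a in replicate 1, and the conservative set did not hold this gene. Prpf38b was thus higher in each replicate by more than the replicates differed. Prpf19, the ubiquitin ligase at the centre of the Prp19 complex, had 13.4 and 11.4. Prpf18, a factor of the second catalytic step, had no optimal promoter peak, with strongest relaxed peaks of 6.72 and 4.44 and the nearest optimal summit 189407 bp away.

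**Figure D2:**
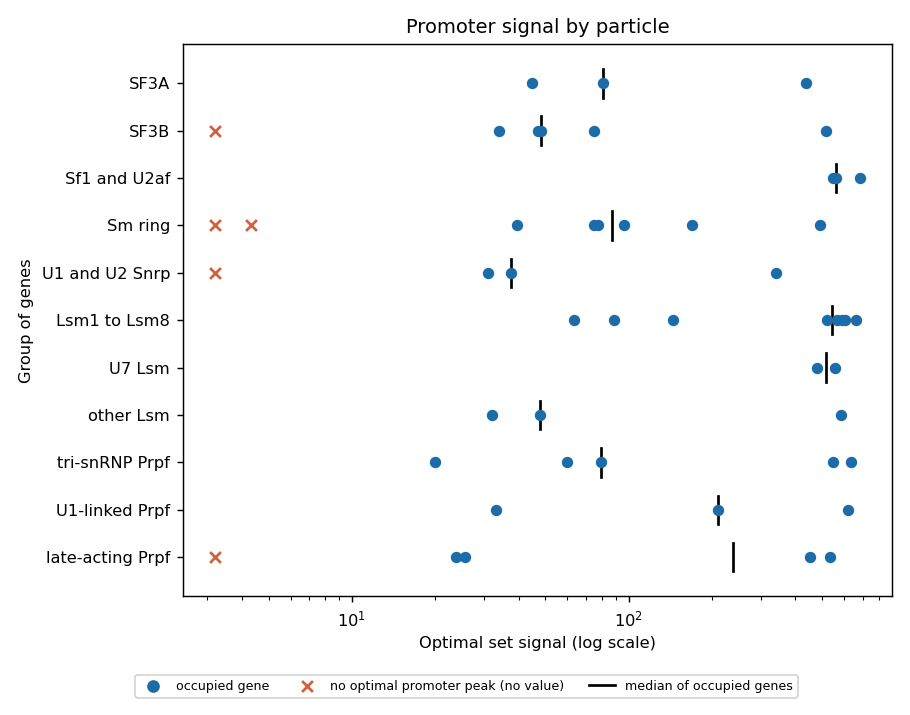
Signal in the optimal set (log axis) of each occupied spliceosome gene, grouped by particle, with a bar at the median of the group and a cross for each gene with no optimal promoter peak, placed at the left edge with no value. The 3 genes of Sf1 and U2af lie together above 500, while the Sm ring and SF3B groups each have 1 gene in the strong band.

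Peaks of the members sat close to their starts and mostly upstream. The absolute distance from summit to start had a median of 75 bp, against 93 bp for all occupied genes. The signed distance, negative upstream, had a median of -29 bp against 2 bp. Summits were upstream at 30 of 45 members (66.7%), against 49.1% of all occupied genes, and within 100 bp at 30 members (66.7%), against 52.4%. Of the peaks, 10 lay beyond 200 bp, among them the U2AF genes, Snrpd2 at 336 bp and Prpf4b at 366 bp upstream. These distances depended on the start used. From the start of the RefSeq promoter, summits lay nearer, and upstream, at U2af1 (-127 bp), Snrpd2 (-57 bp) and Lsm14a (-45 bp). From that start they lay farther at Prpf4b (-1075 bp), Prpf40b (-220 bp) and Sf1 (-210 bp). Prpf4b had a second optimal peak of 431 at 749 bp inside the gene. Its copy with 1 mismatch lay 1106 bp from the summit of the stronger peak, whose position the promoter table does not reach, and within the second one.

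**Figure D3:**
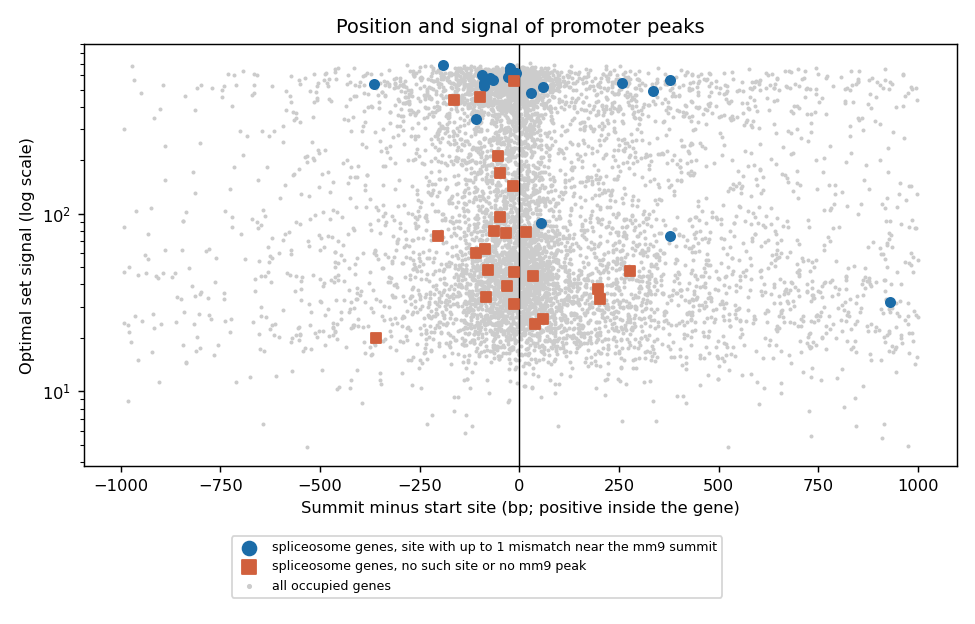
Optimal signal (log axis) against the distance of the summit from the annotated start, negative upstream, for spliceosome genes with a copy of the element of up to 1 mismatch near the mm9 summit (circles), the other occupied spliceosome genes (squares) and all occupied genes (grey). The circles lie mostly in the strong band and the squares mostly below 100, while both kinds gather around the start.

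A copy of the element was more frequent in the members' promoters than in all promoters. The shares that follow are not given for CpG-rich promoters alone, and the part of CpG content in them was not tested. Of the 40 members with a RefSeq promoter of 300 bases, 6 had the full element (15%), against 3.31% of all promoters, and 16 had a copy with up to 1 mismatch (40%), against 13.3%. Counted among occupied genes only, these were 16.2% against 7.74% and 43.2% against 27.2%. In the 1000 bp centred on the mm9 start, 8 of 50 members had the full element against 4.7% of all genes, and 27 had a copy with up to 1 mismatch against 22%. None of the 5 members without an optimal promoter peak had such a copy there. The share among all genes without an optimal promoter peak is not given, so no link to the missing peaks is drawn from these 5.

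The copies lay near the summits. Of the 16 members with a copy of up to 1 mismatch in the 300 bases, 14 had it within 30 bp of the summit, and the median distance was 10.5 bp. The exceptions were Prpf4b and Sf3b2, whose copy lay 59 bp from the summit. This distance is not given for all occupied genes, so the nearness is not read as particular to the members. At the mm9 summits, whose sequence could be read on either side in every gene, 20 of the 43 members with an mm9 promoter peak had a copy of up to 1 mismatch within 50 bp (46.5%), against 39% of all genes with such a peak. The full element was there at 7 members (16.3%), against 11.8%.

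Signal in the optimal set followed the match at the mm9 summit. Members with the full element there had a median of 563 (n = 7), against 529 for all genes. Members with 1 mismatch had 535 (n = 13), against 433. With 2 mismatches the members had 144 (n = 5), against 108, and with 3 or more 47.9 (n = 18), against 49.8. The members' median was above that of all genes in 3 classes and below it in 1, and the large step, for members and for all genes, was between the classes of 1 and of 2 mismatches. Of the 19 members in the strong band with an mm9 peak, which all but Sf3a2 had, 17 had a copy of up to 1 mismatch (89.5%), against 75.1% of all genes in that band. Below 100, 3 of 21 members had one (14.3%), against 13.5%, and between the bands 0 of 3, against 32.9%.

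The exceptions to that pattern can be named. In the strong band they were Lsm11 and Prpf38b, whose windows are printed above. Below 100 they were Lsm6, Snrpe and Lsm12. For 2 genes the copy and the signal came from different peaks. At Prpf4b the copy under the mm9 peak lay at the second optimal peak of 431, while the 535 counted for the gene, which is also the median of its class, was that of the other peak. At Lsm12 the mm9 peak with the full element lay at another start site than the weak optimal peak counted for it. For Lsm6 and Snrpe the copies with 1 mismatch lay 16 and 13 bp from the mm9 summit, and are shown here on build NCBIM37 (mm9) with the element in capitals because near copies under weak peaks are the counterexample to the strong ones:
Lsm6 (chr8:81344976-81345005, minus strand): ttttcggcgcGCGCGTcCGCggaagcccgg
Snrpe (chr1:135506436-135506465, minus strand): tggggagggaGCGCATGCtCccggcggtcg

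The strong Lsm10 had the same form of the element as Snrpe, which on 1 strand reads GAGCATGCGC. Signal was 479 at Lsm10 and 74.8 at Snrpe, and 255 and 226 against 44.6 and 32.7 in the replicates. Genes with the same 10 bases thus differed by more than the replicates did. The signal within the classes of match also ranged widely, from 74.8 at Snrpe to 685 at Sf1 with 1 mismatch.

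**Figure D4:**
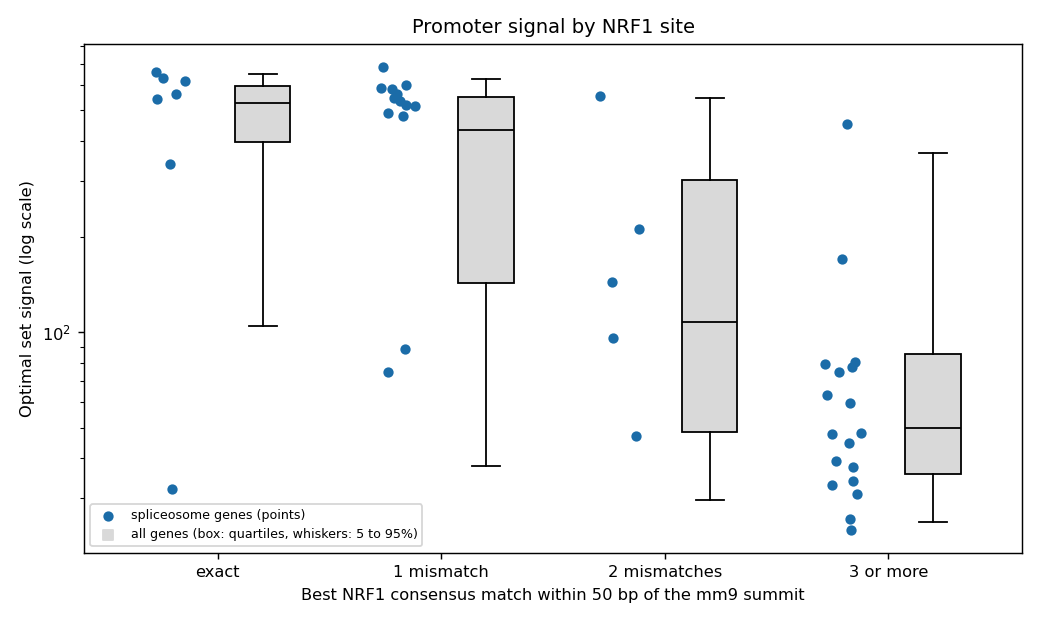
Optimal signal (log axis) of spliceosome genes (points) and of all genes with both kinds of peak (grey boxes at the quartiles with a line at the median, whiskers from 5 to 95%), by the best match to the NRF1 element within 50 bp of the mm9 summit. Points of the exact and 1-mismatch classes lie mostly above 300, and the 3 that lie below 100 are Lsm12, Lsm6 and Snrpe.

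Motifs of other promoter factors were counted for contrast in the 300-base promoters, on both strands. The ETS core CCGGAAGT was in 7 of 40 members (17.5%), against 5.34% of all promoters. Among occupied genes it was in 18.9% of members, against 10% of all. The YY1 core AAGATGGC was in 3 members (7.5%), against 3.23%. Neither motif contains the NRF1 element or is contained in it. A match says only that these letters occur in the window.

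Several of the members share their peak with a gene that runs the other way. A divergent protein-coding neighbour with its start within 1000 bp upstream was found for 10 of 50 members (20%), against 6.98% of all genes. All 10 were occupied, against 80.7% of all genes with such a neighbour, and in each case the same peak counted for both genes. Without such a neighbour 35 of 40 members were occupied (87.5%), against 33.5% of all genes without one. In the strong band the pairs were Lsm7 with Sppl2b at 33 bp, Lsm1 with Bag4 at 109 bp, Sf3a2 with Plekhj1 at 109 bp and Snrpd2 with Qpctl at 249 bp. In the weak band they included Snrpd3 with Gucd1, Lsm3 with Xpc, Prpf4 with Cdc26, Sf3a1 with Ccdc157 and Prpf31 with Tfpt. Such a peak cannot be given to 1 of the 2 genes, and at Lsm7 its summit lay 24 bp from 1 start and 9 bp from the other.

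Other splicing genes, on 6 lists by role, were occupied at 106 of 138 (76.8%), with a median signal of 144, against the 36.8% of all genes given above. The conservative set held 112 of them, against 43 of the 50 members and 35.6% of all genes. The top lists of replicates 1 and 2 held 114 and 113, against 45 and 46 members and 38% and 36.7% of all genes. Within 500 bp it was 99, against 44 members and 33.7% of all genes. Other snRNP proteins, such as those of U11/U12 and the remaining tri-snRNP, were nearest to the members with 25 of 27 occupied (92.6%) and a median of 225. In that list Sart1 had 605 and Snrnp25 583, and Cd2bp2 was unoccupied. Its strongest relaxed promoter peaks had 10.7 in replicate 1 and 10.3 in replicate 2, and each replicate's top list held all 27 genes. Genes of the Prp19 complex and of catalytic activation were occupied at 33 of 40 (82.5%), with a median of 94.5, led by Ppil4 at 600 and Snw1 at 567, and Aqr was unoccupied. The remaining lists had lower shares, and the median signal of their occupied genes did not follow that order. The SR proteins, which bind exonic enhancers, were occupied at 10 of 16 (62.5%), with a median of 352, the highest of the 6 lists, led by Srsf9 at 542 and Srrm1 at 506, and Srrm2 was unoccupied. The hnRNP proteins, which coat pre-mRNA, were occupied at 18 of 26 (69.2%), with a median of 176, led by Hnrnpa1 at 542 and Hnrnpm at 536, and Hnrnpa2b1 was unoccupied. The exon junction complex list, which also takes in mRNA decay factors such as Upf1 and Upf2, had 9 of 13 genes occupied (69.2%). Their median was 114, led by Upf1 at 542 and Upf2 at 528, and Magoh was unoccupied. The genes that assemble the Sm core were occupied at 11 of 16 (68.8%), with a median of 141, led by Strap at 534 and Gemin4 at 483, and Gemin6 was unoccupied. The difference in share between the lists was not tested.

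With 1 group, 1 antibody and no library of another kind analysed here, no test between conditions was possible, and the values describe where signal was found in this line. Read depth is unknown, so an unoccupied promoter means that no optimal peak had its summit in the window, not that NRF1 was absent. Over all genes, 391 had a conservative promoter peak and no optimal one, and 0 of these were members.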

How the data were processed

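NRF1 chromatin immunoprecipitation was measured in 2 libraries of 1 group, and the files are peak lists. The authors, per the notes among the deposited files, called a relaxed list on mm10 for each replicate with a control, selected a conservative and an optimal set by irreproducible discovery rate, and called a separate set on mm9 from both replicates. Aligner, peak caller, thresholds and read numbers: not given in the sources used here. Depth is therefore unknown, and intervals that need it were left out. The signal value of each deposited peak is the authors' own, with its scaling not given, and values on mm9 and mm10 were not compared.

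Start sites are the outer ends of 21631 RefSeq protein-coding genes on chromosomes 1 to 19 and X, of which 360 had no strand and were left out. Strand came from the RefSeq promoter table for 17274 genes and from GENCODE names for the rest. Of the 17554 optimal peaks, 17547 lay on these chromosomes. A replicate's value is that of the relaxed peak with the nearest summit among those overlapping the optimal peak by at least 1 bp. Occupied genes, site counts and CpG content were computed over all genes, and the members' rows were read from that table, with no test, since there is 1 group. Sites were read from the RefSeq promoters (GRCm38.p6) and, around mm9 summits and starts, from the NCBIM37 genome.

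Genes named are the 12 members of highest signal, the 6 weakest occupied, all with no optimal promoter peak, the strongest and weakest of each group, both genes of each paralog pair, Sf1, U2af1 and U2af2, and of each other list the strongest 2 and the alphabetically first unoccupied. Others are named as exceptions after their values were seen. The values of 1 member that this rule names are not reported here, though it is included in all counts. Of 140 symbols on the 6 other lists, 138 were in the gene table. The members and lists were chosen with earlier results of these data known. Alternatives were the conservative set, each replicate's top list, other windows, the mm9 set, stronger peaks and other site rules. The scripts were tested on simulated peaks and sequences. Tools were Python 3.11.15, pandas 2.3.3, numpy 2.4.6 and matplotlib 3.10.9.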

Additional observations from a re-analysis of the deposited data

How the results depend on the processing

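The count of occupied members was 45 and stayed within 1.5 times of that under every alternative run, and the 5 members without an optimal promoter peak did not gain one from any RefSeq start. The median signal of occupied members was 144 and was 170 in the conservative set, 436 in the peaks of higher signal, 157 with a promoter of 500 bp and 170 with one of 2000 bp. It was 265 in the mm9 set, on another scale. Without 1 replicate it ranged from 58.9 to 65.0, on the scale of the list left. In these settings all genes had medians of 93.7, 218, 85.7, 85.9, 189 and, for the single replicates, 44.7 and 39.7, so the members' median was the higher in each. The median of the members' replicate means was 70.8 and ranged from 58.9 to 74.7 without 1 replicate. The count of promoters with the full element was 6, with 16 at up to 1 mismatch, as a looser rule must give at least as many. Within 50 bp of the mm9 summit, another window over other members, it was 20 at up to 1 mismatch, and the cause was not tested. The 8773 peaks of higher signal held 37 members and the strongest 4386 held 23, also by construction. The start sites of any RefSeq transcript and the search around mm9 summits were chosen after seeing the data. No paired analysis was possible because the 2 libraries form 1 group. Signal near 10 lies at the lower end of each replicate's top list, 9.83 in replicate 1 and 9.62 in replicate 2, where single-replicate calls differed: Sf3b6 was in the list of replicate 1 alone, Snrpc in that of replicate 2 alone, and Prpf31 was missing from that of replicate 1.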
